A study of Mus musculus with 47 samples.

Results

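Gene expression in muscle stem cells was compared between ZT12 and ZT8 in control-diet mice. The comparison was defined by the sample titles, which give 4 mice at ZT12 and 4 mice at ZT8 on that diet, 8 of the 47 arrays of the series. Zeitgeber time (ZT) counts hours from lights on, so by convention the step leads from the later part of the light phase to lights off. All 8 animals were female wild-type C57B6/J mice, 15 weeks old at collection, which had eaten the control diet freely for the 7 weeks before. Mice on a high-fat diet for the same 7 weeks, 4 at ZT12 and 4 at ZT8, served as a second set of animals for the same step. The series covered 6 times on both diets (ZT0, ZT4, ZT8, ZT12, ZT16 and ZT20), and all mice of a time point, on either diet, were collected on 1 day. The step from ZT8 to ZT12 is therefore also a step between 2 collection days, and time and day cannot be told apart.

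Satellite cells are the resident stem cells of skeletal muscle. They lie quiescent beside the myofibres and activate after injury. Like most cells they hold a circadian clock, in which the factors BMAL1 (gene Arntl) and CLOCK bind E-box sequences and switch on the period and cryptochrome genes. The proteins of these genes then repress that activity, and a second loop of REV-ERB and ROR receptors acts on Arntl through ROR elements. Feeding, hormones and body temperature also change over the day in mice, and stem cells are exposed to them.

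The arrays give a log2 expression value for each probe set, and a difference of 1 stands for a 2-fold change. Arrays correlated with the rest of their own group at 0.974 to 0.986 on average in the 4 groups used, and the median SD within both control groups was 0.15 on the log2 scale over 10258 genes. The number of arrays limits the precision. Of 8 satellite cell markers, all were above the level filter, and their mean level was 9.88 to 9.96 in the ZT12 mice and 9.91 to 9.99 in the ZT8 mice. Pax7, the defining factor of these cells, had 10.93, 10.87, 10.98 and 10.98 at ZT12, against 10.94, 11.19, 11.05 and 10.96 at ZT8. The mean of 13 myofibre markers was 5.72 to 6.10 at ZT12 and 5.83 to 6.15 at ZT8, that of 10 immune markers 5.40 to 5.56 at ZT12 and 5.30 to 5.45 at ZT8, and that of 8 endothelial markers 5.50 to 5.60 at ZT12 and 5.55 to 5.88 at ZT8. Of the immune markers 7 lay below the level filter, and of the endothelial markers 5 did. Over the 3 immune markers above it the mean was 7.52 to 8.01 at ZT12 and 7.26 to 7.42 at ZT8, without overlap. The 3 were uneven, with log2 differences of 0.79 for Cd68, 0.33 for Cd79a and 0.01 for Cd74. The groups lay apart in 1 of them. The labels give no sort or purity, and in bulk RNA fewer cells of a type and less RNA per cell cannot be told apart.

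Of the 10258 genes tested, 370 were higher at ZT12 than at ZT8 and 584 were lower, at an adjusted p under 0.05 in limma. These are 3.61% and 5.69% of the genes, and 9.3% in either direction, and the counts given below for lists are to be read against these shares. Values after ± below are standard errors from this fit, with 4 mice per group. At an unadjusted p under 0.05 the share was 24.2%. Most changes were small: the median size among the 954 genes called was 0.5 on the log2 scale, and 20 genes were at least 2-fold higher and 35 at least 2-fold lower. The median over all tested genes was -0.03. The balance between directions depended on how the arrays were levelled. Higher genes made up 38.8% of the calls on the deposited values, 50.1% after cyclic loess (470 higher, 469 lower) and 47.6% after centring each array on its median (432 higher, 475 lower). Without ZT12 replicate 3 the number of lower genes was 382, and with array weights 748 genes were higher and 1292 lower. The other steps of the day on the control diet gave 1182 calls between ZT0 and ZT4 (11.5% of the genes), 573 between ZT4 and ZT8 (5.59%), 982 between ZT12 and ZT16 (9.57%), 557 between ZT16 and ZT20 (5.43%) and 880 between ZT20 and ZT0 (8.58%).

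Period genes of the clock rose at ZT12 and Arntl fell. Of the 6 period and cryptochrome repressors, 4 rose (Per1, Per2, Per3 and Cry2), none fell, and the list's median difference was 0.72 against -0.03 over all genes. Per2 (chromosome 1) had 10.29, 10.26, 10.31 and 10.13 in the ZT12 mice, against 9.07, 9.07, 8.81 and 8.73 in the ZT8 mice. It was 2.51-fold higher at ZT12 (log2 difference 1.33 ± 0.16, adjusted p = 3.5e-07), with a wide gap between the groups. Per1, which also responds to glucocorticoids, had 9.65, 9.51, 9.50 and 9.70 at ZT12, against 8.80, 8.76, 8.91 and 8.77 at ZT8. Its difference was 0.78 ± 0.14 (adjusted p = 0.00018), and the mice within each group lay close together. Per3 had 8.82, 9.22, 9.17 and 9.11 at ZT12, against 8.20, 7.48, 8.01 and 8.20 at ZT8, a difference of 1.11 ± 0.27 (adjusted p = 0.00664). The other 4 probe sets of Per3 gave smaller differences, 0.16 to 0.62, and the mean of all gave 0.52. Cry2, a cryptochrome, rose by 0.65 ± 0.19 (adjusted p = 0.028). Cry1, its paralogue, differed by 0.30 ± 0.12 and Ciart, a repressor of CLOCK and BMAL1, by -0.13 ± 0.11, and neither passed the test (adjusted p = 0.101 and 0.489).

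**Figure D1:**
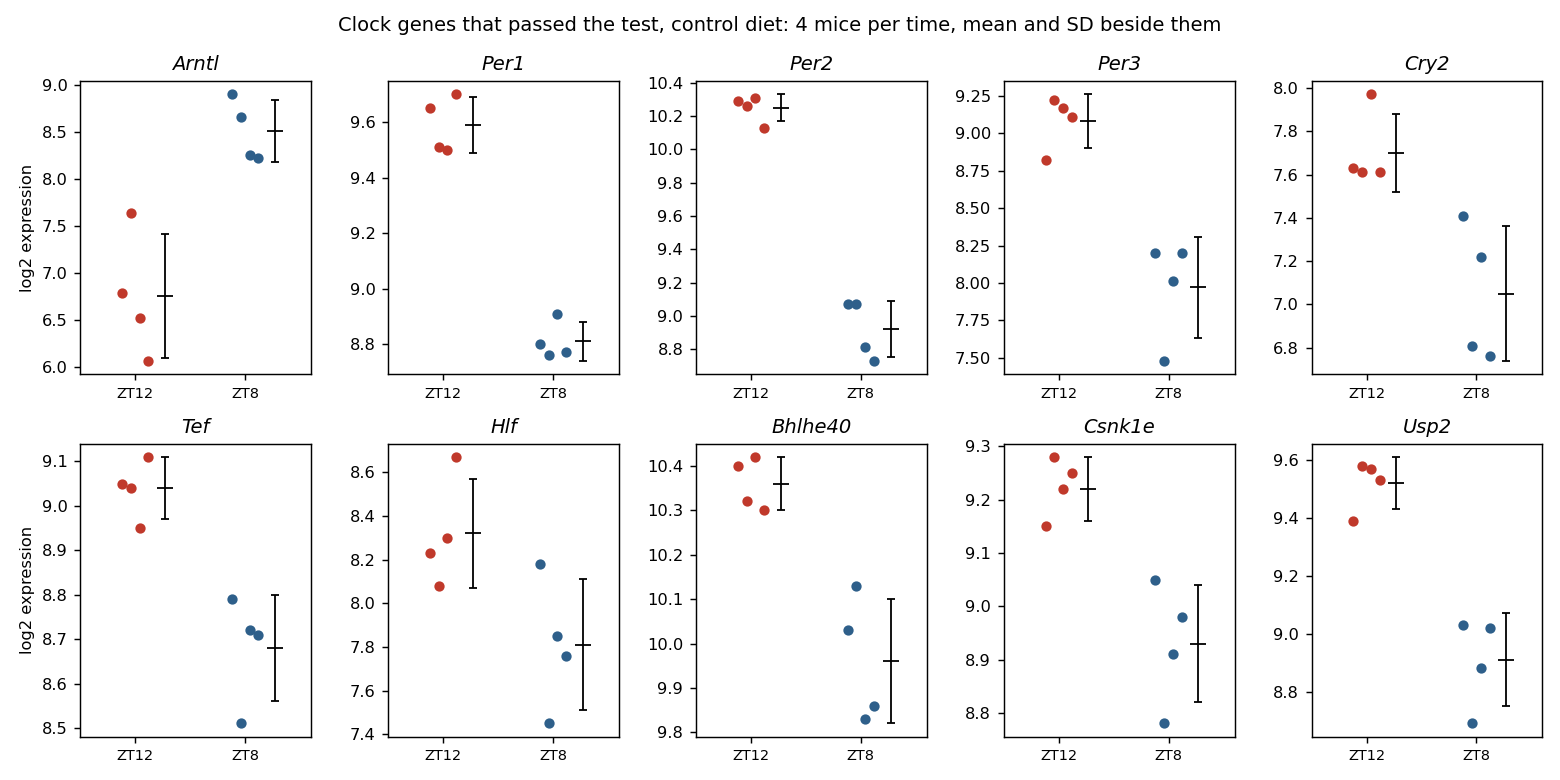
Log2 expression of the 10 clock genes past the threshold, 1 panel a gene; each point is a control-diet mouse at ZT12 (red) or ZT8 (blue), and the bar beside the points is the mean with its SD (n = 4). Arntl is lower at ZT12 in all mice, the other 9 genes have higher means at ZT12, and Hlf is the panel in which the groups overlap.

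Arntl (chromosome 7), which encodes BMAL1, was the member of the positive arm that changed. It had 6.79, 7.64, 6.52 and 6.07 at ZT12, against 8.90, 8.66, 8.26 and 8.22 at ZT8. The ZT12 mice differed widely, yet all lay below the ZT8 mice, and the gene was 3.37-fold lower at ZT12 (-1.75 ± 0.33, adjusted p = 0.000407). A second, dimmer probe set of Arntl (mean level 5.86) differed by -0.29, and the mean of both by -1.02. The other members of the positive arm did not pass the test: Clock differed by -0.07 ± 0.18 (adjusted p = 0.86), Npas2 by -0.05 ± 0.10 (0.823) and Arntl2 by -0.21 ± 0.09 (0.131). Over the day the control means of Npas2 were 8.54, 7.92, 7.48, 7.43, 7.85 and 8.60 from ZT0 to ZT20, so that ZT8 and ZT12 were its low points. Arntl had 8.88, 8.59, 8.51, 6.76, 9.16 and 8.75, so that ZT12 stood apart from the times on either side.

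Among the outputs of the clock, Tef rose by 0.35 ± 0.10 (adjusted p = 0.0241) and Hlf by 0.51 ± 0.15 (adjusted p = 0.0203), both PAR bZIP factors that bind D-boxes. Dbp, the third of these factors, had 8.39, 8.23, 8.67 and 8.88 at ZT12, against 8.82, 8.55, 8.68 and 7.95 at ZT8 (0.04 ± 0.19, adjusted p = 0.924), and its control means were higher at these times than at any of the other 4. Nr1d2, a REV-ERB receptor, also had its highest means of the day at these times, 9.95 at ZT12 and 9.97 at ZT8 (-0.02 ± 0.13, adjusted p = 0.95). Rora (-0.02 ± 0.07), Nfil3 (0.08 ± 0.07) and Bhlhe41 (0.11 ± 0.11) did not pass the test. Bhlhe40 (DEC1), a repressor that binds E-boxes, rose by 0.40 ± 0.10 (adjusted p = 0.0103). Usp2, a deubiquitinase that acts on clock proteins, had 9.39, 9.58, 9.57 and 9.53 at ZT12, against 9.03, 8.69, 8.88 and 9.02 at ZT8, and rose by 0.61 ± 0.08 (adjusted p = 7.77e-07). Csnk1e, a casein kinase of period proteins, rose by 0.29 ± 0.08 (adjusted p = 0.0192), while Csnk1d (0.01 ± 0.04), Btrc (0.19 ± 0.14) and Timeless (-0.10 ± 0.18) did not pass the test. The calls of 4 of these genes rested on single mice. Cry2 had an adjusted p of 0.101 without ZT12 replicate 3, 0.0849 without ZT8 replicate 2 and 0.102 without ZT8 replicate 4, Tef 0.0674 without ZT12 replicate 4 and 0.0891 without ZT8 replicate 2, Hlf 0.108 and 0.0995 without the same pair of mice, and Csnk1e 0.0554 without ZT12 replicate 2 and 0.0772 without ZT8 replicate 2.

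The upstream sequences of 4 of the changed clock genes are shown because they hold letters searched for as E-boxes, D-boxes or ROR elements. Each is 250 bases before a gene start, from RefSeq on GRCm38.p6, written 5′ to 3′ on the gene's strand. The capitals mark an E-box (CACGTG) or a D-box (TTATGCAA) in Per1, D-boxes (TTATGTAA) in Per3 and an E-box in Tef. They also mark the letters TNGGTCA, on either strand and with N for any base, in Per3 and Arntl. These letters are looser than the ROR element, and the full element was not searched for. The marked stretches read TTGGTCA and TCGGTCA in Arntl and TGACCAA in Per3, so that N is T or C in them. Whether any of them is a ROR element was not tested. Per1 lies at chr11:69098699-69098948 (plus strand), Per3 at chr4:151044666-151044915 (minus strand), Tef at chr15:81802423-81802672 (plus strand) and Arntl at chr7:113207215-113207464 (plus strand).
Per1: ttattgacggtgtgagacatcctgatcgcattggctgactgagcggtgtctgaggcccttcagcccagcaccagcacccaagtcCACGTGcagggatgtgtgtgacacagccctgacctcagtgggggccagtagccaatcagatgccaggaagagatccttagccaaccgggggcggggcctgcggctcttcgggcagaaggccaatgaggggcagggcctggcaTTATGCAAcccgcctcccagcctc
Per3: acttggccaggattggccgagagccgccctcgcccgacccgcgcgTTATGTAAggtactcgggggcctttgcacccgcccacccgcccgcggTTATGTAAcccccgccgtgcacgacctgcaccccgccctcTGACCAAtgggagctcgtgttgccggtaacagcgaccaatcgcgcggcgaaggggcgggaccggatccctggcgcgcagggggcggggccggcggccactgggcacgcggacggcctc
Tef: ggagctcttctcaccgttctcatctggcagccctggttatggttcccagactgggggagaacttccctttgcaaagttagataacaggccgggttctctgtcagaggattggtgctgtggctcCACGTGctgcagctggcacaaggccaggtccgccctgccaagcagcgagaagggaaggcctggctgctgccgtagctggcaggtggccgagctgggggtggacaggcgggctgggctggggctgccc
Arntl: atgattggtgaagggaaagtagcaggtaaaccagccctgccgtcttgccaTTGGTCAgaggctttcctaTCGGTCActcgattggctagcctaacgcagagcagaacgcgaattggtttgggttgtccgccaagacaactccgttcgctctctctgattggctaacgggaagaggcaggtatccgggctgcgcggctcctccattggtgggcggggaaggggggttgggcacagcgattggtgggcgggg
Of the 31 genes that the sequence rule covered (clock genes past the threshold and the genes with the largest changes), 23 had a window in the table. Per2 and Bhlhe40 had none. Several genes, among them Per1, Tef and Arntl, had more than 1 start, and the second window of Per1 held none of these elements. Among the 8 changed clock genes with a window, an E-box stood in 2 (Per1 and Tef) and a D-box in 2 (Per1 and Per3). Both strands were counted, and TNGGTCA stood in 4 (Arntl, Per3, Cry2 and Tef). Over the 8254 tested genes with a window, 10.2% held an E-box, 1.21% a D-box and 10.1% the letters TNGGTCA. Among all genes higher at ZT12 with a window (288), 9.38% held an E-box and 1.04% a D-box, and among those lower (462) 51 and 5 windows held them. A match is a description of the letters and not a site.

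Cholesterol synthesis genes fell together. Of 16 genes tested, 12 fell and none rose, and the list's median difference was -1.0, against -0.03 over all genes, of which 5.69% fell. In 13 of the 16 all ZT12 mice lay below all ZT8 mice, a pattern seen in 9.85% of all genes. Idi1 (chromosome 13), the isomerase that makes the building block of the isoprenoid chain, had 6.78, 6.39, 6.55 and 7.49 at ZT12, against 9.52, 9.23, 9.37 and 9.76 at ZT8. It was 6.35-fold lower at ZT12 (-2.67 ± 0.23, adjusted p = 3.56e-10), the largest decrease under the rule for named genes, and its second probe set gave -2.25. Stard4 (chromosome 18), which carries cholesterol between membranes, had 7.40, 6.47, 6.48 and 6.12 at ZT12, against 8.74, 8.64, 8.82 and 9.04 at ZT8, and was 4.57-fold lower (-2.19 ± 0.22, adjusted p = 4.03e-09).

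The genes that fell lie along the pathway. In its middle, Fdps, which makes farnesyl pyrophosphate, fell by 0.94 ± 0.19 and Fdft1, which joins farnesyl units to squalene, fell by 1.18 ± 0.18 on the log2 scale (adjusted p = 0.00118 and 2.64e-05). Sqle, the rate-limiting squalene epoxidase, had 7.93, 7.21, 7.23 and 7.04 at ZT12, against 9.12, 8.71, 8.87 and 8.98 at ZT8 (-1.57 ± 0.22, adjusted p = 3.61e-06). Past lanosterol, Cyp51, its demethylase, had 8.76, 8.23, 8.71 and 8.54 at ZT12, against 10.19, 9.80, 10.07 and 10.24 at ZT8 (-1.52 ± 0.15, adjusted p = 4.03e-09). The 3 probe sets of Cyp51 differed by -1.52 to -1.59. The late enzymes Msmo1 (-1.16 ± 0.13), Nsdhl (-1.04 ± 0.22) and Sc5d (-1.27 ± 0.25) fell as well. The members that differed less were Hsd17b7 (-0.54 ± 0.18, adjusted p = 0.0478) and, short of the threshold, Dhcr7 (-0.57 ± 0.20, 0.0593), Mvk (-0.37 ± 0.13, 0.0574), Ebp (-0.12 ± 0.19, 0.757) and Tm7sf2 (0.19 ± 0.12, 0.353).

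The regulators of the pathway fell with its enzymes. Srebf2, which encodes the transcription factor SREBP2 that drives these genes when sterols are low, had 8.31, 7.85, 8.25 and 8.54 at ZT12, against 9.29, 8.97, 9.10 and 9.18 at ZT8 (-0.90 ± 0.13, adjusted p = 5.63e-06). Insig1, which holds SREBP in the endoplasmic reticulum and is itself a target of it, had 10.28, 10.23, 10.37 and 10.46 at ZT12, against 11.50, 11.09, 11.28 and 11.33 at ZT8 (-0.97 ± 0.10, adjusted p = 1.19e-08). Neither gene's groups overlapped. The mean of the list was 7.32 ± 0.13 at ZT12 and 8.37 ± 0.22 at ZT8 (SD, n = 4), and 7.87, 8.17, 8.37, 7.32, 7.46 and 7.41 from ZT0 to ZT20, with the 3 higher means at ZT0 to ZT8 and the 3 lower ones at ZT12 to ZT20. The count of lower members was 11 to 14 when single mice were left out, and Hsd17b7 was the call that failed, with an adjusted p of 0.138 without ZT12 replicate 3 and 0.0521 to 0.136 in 6 other such fits. Of the 25 genes listed, 3 lay below the level filter and 6 had no probe set with a single symbol and were not analysed here.

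**Figure D2:**
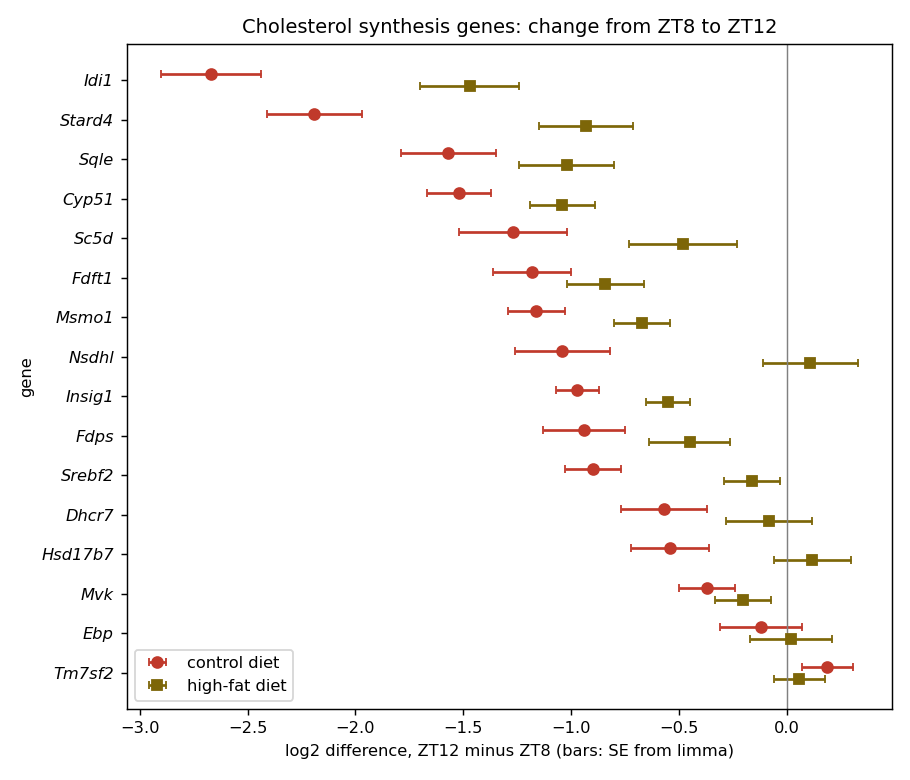
Log2 difference of ZT12 minus ZT8 for the 16 cholesterol synthesis genes tested, with its standard error, on the control diet (red circles) and the high-fat diet (olive squares). On the control diet 15 of 16 points lie left of zero, and for the genes with the largest falls the high-fat point lies nearer zero.

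Sc5d was the member of this pathway for which an upstream sequence is shown, as the gene of the pathway with an E-box (CACGTG, in capitals) among those the sequence rule covered. The 250 bases before its start lie at chr9:42264301-42264550 on the minus strand (RefSeq, GRCm38.p6).
Sc5d: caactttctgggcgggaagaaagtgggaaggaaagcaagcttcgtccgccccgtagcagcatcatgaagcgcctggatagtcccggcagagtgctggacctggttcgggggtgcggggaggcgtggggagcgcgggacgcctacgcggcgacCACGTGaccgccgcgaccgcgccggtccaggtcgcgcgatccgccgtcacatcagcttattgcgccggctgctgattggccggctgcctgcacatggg
Of the 12 genes of the pathway that fell, 8 had a window. An E-box stood in 3 of them (Hsd17b7, Sc5d and Insig1) and a sterol response element written as TCACNCCAC in none, against 1.19% of all windows. No match says only that these letters are not in these windows.

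Of 15 fatty acid synthesis genes, 4 fell and none rose, against 5.69% lower over all genes. The other 11 did not pass the test, and the median of the list was -0.22. Fasn, the fatty acid synthase, had 8.79, 8.63, 8.82 and 9.04 at ZT12, against 9.51, 9.22, 9.44 and 9.32 at ZT8 (-0.55 ± 0.11, adjusted p = 0.000675). Acsl3, which activates long-chain fatty acids, fell by 0.85 ± 0.19 (adjusted p = 0.00232) and Acaca, which makes malonyl-CoA, by 0.57 ± 0.14 (0.00791). The call of Acaca was lost without ZT12 replicate 3 (adjusted p = 0.064). Scd1, the desaturase that makes oleate, had 9.81, 9.95, 10.03 and 9.77 at ZT12, against 10.41, 10.27, 10.24 and 10.24 at ZT8 (-0.40 ± 0.08, adjusted p = 0.000631). The groups of Scd1 lay apart.

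Of 22 genes of fatty acid use 1 rose and 1 fell, with a median of -0.03, which is near the 3.61% higher and 5.69% lower over all genes. Cpt1a, the carnitine palmitoyltransferase that admits fatty acids to mitochondria, had 8.91, 8.76, 8.67 and 8.59 at ZT12, against 8.03, 8.47, 8.11 and 8.05 at ZT8 (0.57 ± 0.14, adjusted p = 0.00724). Pdk4, the kinase that shuts pyruvate dehydrogenase when fat is burned, went the other way, with 9.20, 9.38, 9.06 and 8.98 at ZT12, against 10.14, 10.13, 10.14 and 10.27 at ZT8. It was 2.02-fold lower at ZT12 (-1.02 ± 0.10, adjusted p = 4.03e-09), and ZT12 was the low point of its day on the control diet (9.70, 9.96, 10.17, 9.16, 9.93 and 9.98 from ZT0 to ZT20). Pdk4 is also a target of glucocorticoids, FOXO and PPAR factors.

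Glucocorticoid-responsive genes moved in both directions, with 3 up and 3 down of 17 tested and a median of 0.04. Tsc22d3 (GILZ), which encodes an anti-inflammatory mediator of glucocorticoids, had 9.07, 9.07, 8.74 and 8.59 at ZT12, against 7.63, 7.12, 7.51 and 7.55 at ZT8. It was 2.67-fold higher at ZT12 (1.42 ± 0.18, adjusted p = 6.82e-07), and its other probe sets gave 1.52 and 0.29. Fkbp5, a chaperone of the glucocorticoid receptor, had 8.83, 8.41, 7.87 and 7.83 at ZT12, against 7.43, 7.43, 7.49 and 7.66 at ZT8 (0.73 ± 0.18, adjusted p = 0.00702, and 0.057 without ZT12 replicate 1). The mean of its probe sets differed by 0.40. The ZT12 mice of Fkbp5 were spread out, while the ZT8 mice lay within a narrow band. Per1, given above, was the third to rise. Against these, Pdk4 fell, and so did Sgk1, a kinase of ion transport (-0.25 ± 0.06, adjusted p = 0.00627), and Errfi1, an inhibitor of EGF receptors (-0.12 ± 0.03, adjusted p = 0.00638). Klf9, another target, differed by 0.04 ± 0.03 (adjusted p = 0.41).

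Of 20 antioxidant genes driven by NRF2, 5 fell and none rose, against 5.69% lower over all genes. The other 15 did not pass the test, and the median of the list was -0.11. Srxn1 (chromosome 2), sulfiredoxin, which repairs oxidised peroxiredoxins, had 7.28, 7.56, 7.51 and 7.53 at ZT12, against 9.36, 9.26, 9.30 and 9.05 at ZT8. It was 3.42-fold lower at ZT12 (-1.77 ± 0.23, adjusted p = 7.69e-07), with narrow groups far apart, and its other 3 probe sets gave -0.46 to -1.61, with a mean over all of -1.17. Gclc and Gclm, the subunits of the enzyme that limits glutathione synthesis, fell by 0.71 ± 0.13 (adjusted p = 0.000216) and 0.53 ± 0.13 (adjusted p = 0.00664). Txnrd1, thioredoxin reductase, fell by 0.30 ± 0.07 (adjusted p = 0.00694). Txn1, thioredoxin, fell by 0.15 ± 0.05 (adjusted p = 0.0401), a call lost in 7 of the 8 fits that left out 1 mouse (0.0519 to 0.112). Nfe2l2, which encodes NRF2 itself, differed by -0.09 ± 0.10 (adjusted p = 0.639). An antioxidant response element (TGACNNNGC) stood in the windows of Gclm and Txnrd1 among the 4 members with one, against 13.8% of all windows and 18.6% of those of all lower genes.

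Of 13 NF-kB signalling genes 6 fell and none rose, with a median of -0.29, against 5.69% lower over all genes. Rela, the activating subunit, had 8.94, 8.90, 8.98 and 8.84 at ZT12, against 9.76, 9.67, 9.77 and 9.40 at ZT8 (-0.74 ± 0.12, adjusted p = 6.35e-05). Cxcl1, a chemokine for neutrophils, had 7.39, 7.98, 8.22 and 8.07 at ZT12, against 8.72, 8.77, 8.70 and 8.83 at ZT8 (-0.84 ± 0.20, adjusted p = 0.00655). Tnfaip3 (A20), a feedback inhibitor of the pathway, fell by 0.48 ± 0.13 (adjusted p = 0.0104). Birc3 (-0.46 ± 0.13, adjusted p = 0.0195), Relb (-0.55 ± 0.16, 0.0273) and Icam1 (-0.57 ± 0.18, 0.0365) complete the count. With the mean of its probe sets Birc3 was not called (adjusted p = 0.196). The calls of Birc3, Relb and Icam1 depended on single mice, whereas Rela, Cxcl1 and Tnfaip3 kept theirs. In the list 3 members were lower without ZT12 replicate 1 or ZT8 replicate 1 and 4 without ZT8 replicate 2. A cytokine receptor outside the list, Osmr, the receptor subunit for oncostatin M, had 7.66, 8.26, 7.82 and 8.04 at ZT12, against 9.40, 9.13, 9.16 and 9.19 at ZT8 (-1.27 ± 0.18, adjusted p = 3.79e-06).

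**Figure D3:**
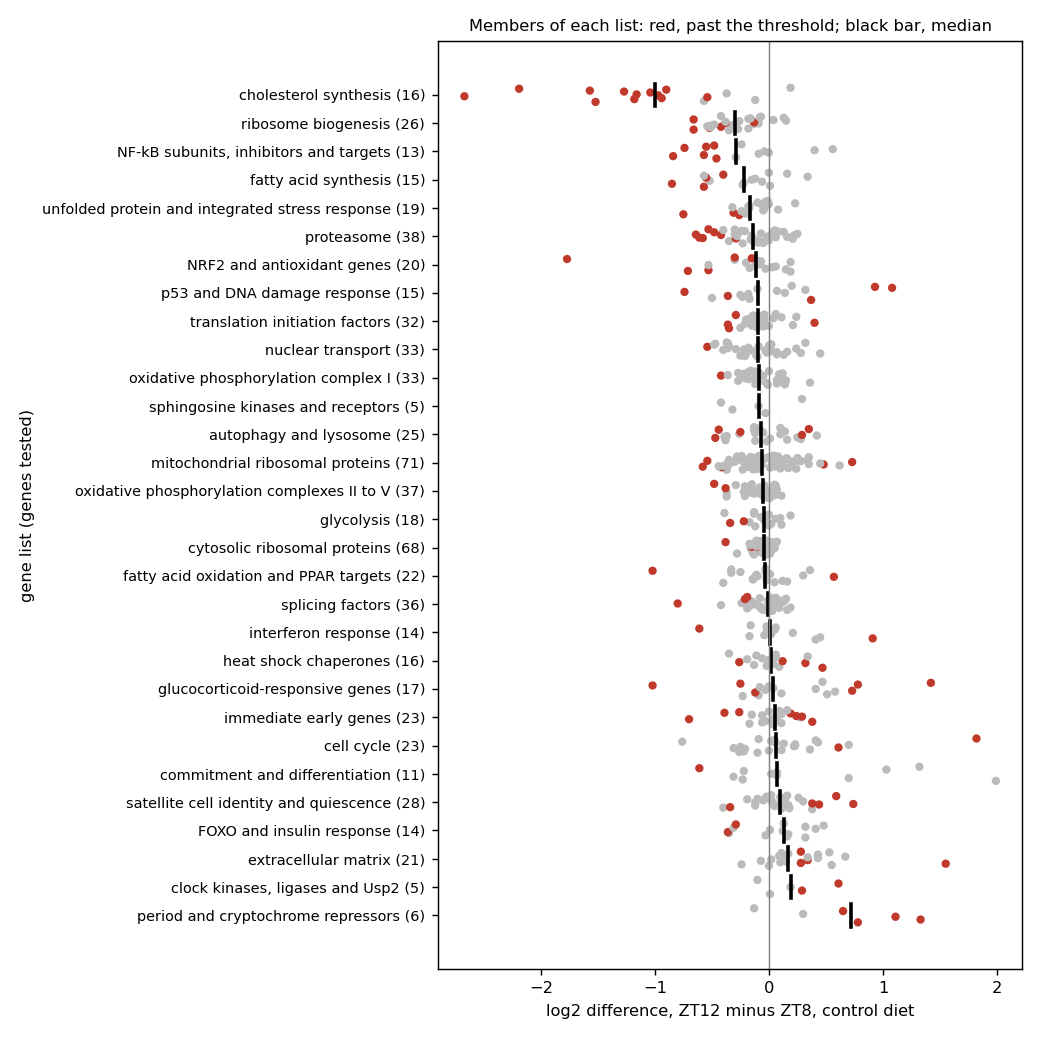
Log2 difference of ZT12 minus ZT8 on the control diet for the members of 30 lists, ordered by the list's median (black bar); each point is a gene, red where past the threshold, and the number in parentheses counts the genes tested. Cholesterol synthesis lies farthest left, with its median at -1.0, and period and cryptochrome repressors farthest right, with theirs at 0.72.

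Genes of ribosome biogenesis and of the proteasome were called in 1 direction. Of 26 ribosome biogenesis genes, 6 fell and none rose, with a median of -0.30, and 23 of the 26 differences were negative. Nop58, a core protein of box C/D particles, had 11.04, 11.01, 10.86 and 10.98 at ZT12, against 11.33, 11.36, 11.33 and 11.40 at ZT8 (-0.38 ± 0.06, adjusted p = 8.81e-05). Ddx21, a nucleolar helicase, fell by 0.66 ± 0.14 (adjusted p = 0.00124), Rrp12 by 0.66 ± 0.17 (0.0084), Npm1 (nucleophosmin) by 0.13 ± 0.03 (0.0109), Ncl (nucleolin) by 0.42 ± 0.12 (0.0183) and Gar1 by 0.52 ± 0.13 (0.0081). Myc, which drives ribosome biogenesis in many cells, had 11.34, 11.40, 11.25 and 11.34 at ZT12, against 11.58, 11.65, 11.56 and 11.57 at ZT8 (-0.26 ± 0.05, adjusted p = 0.001). Leaving out single mice gave 5 to 7 lower members, with Gar1 at an adjusted p of 0.0605 without ZT12 replicate 3 and Ncl at 0.053 without ZT12 replicate 2.

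Of 38 proteasome genes 7 fell and none rose, with a median of -0.14, against 5.69% lower over all genes. Psmd11, a subunit of the regulatory lid, had 9.13, 9.26, 9.29 and 9.20 at ZT12, against 10.03, 9.87, 9.85 and 9.68 at ZT8 (-0.64 ± 0.10, adjusted p = 5.75e-05). Its other 4 probe sets gave -0.02 to -0.42, and the mean of all its probe sets differed by -0.26 (adjusted p = 0.0291). The others were Psmb6, Psmb7, Psmb8, Psmd1, Psmd4 and Psme3 (-0.29 to -0.61), and each of these 6 lost its call without at least 1 mouse: 2 members of the list, a share near that over all genes, were lower without ZT8 replicate 3, 3 without ZT12 replicate 2 or ZT8 replicate 1, and 4 without ZT12 replicate 3 or ZT12 replicate 4. Among 19 genes of the unfolded protein and integrated stress responses, 3 fell and none rose (median -0.17). These were Atf5, a stress-induced transcription factor (-0.75 ± 0.18, adjusted p = 0.00535), Canx, the chaperone calnexin (-0.31 ± 0.08, 0.0066), and Atf4, the effector of the integrated stress response (-0.26 ± 0.06, 0.00284). A second probe set of Atf4 differed by 0.22, and the mean of its probe sets by -0.02 (adjusted p = 0.863). Translation initiation factors gave 3 lower (Eif1a, Eif2s2 and Eif5, -0.29 to -0.36) and 1 higher (Eif3d, 0.40 ± 0.12) of 32, close to the 5.69% lower and 3.61% higher over all genes. With the mean of all probe sets, Eif2s2 (adjusted p = 0.172) and Eif3d (0.272) were not called, and Eif3d was also lost without single mice (0.0634 to 0.1 in 4 fits).

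Immediate early genes, which respond within minutes to growth factors, stress and tissue handling, were called in both directions. Of 23 tested, 4 rose and 3 fell, with a median of 0.05, and the classical members Fos (0.03 ± 0.04) and Egr1 (-0.06 ± 0.04) did not pass the test. Fos had 12.27, 12.22, 12.29 and 12.28 at ZT12, against 12.23, 12.28, 12.19 and 12.24 at ZT8, and the highest value on any array was 13.09. Egr2 rose by 0.38 ± 0.08 (adjusted p = 0.00247) and Jun by 0.29 ± 0.07 (adjusted p = 0.0103), while Fosl1 fell by 0.70 ± 0.13 (adjusted p = 0.000426) and Maff by 0.39 ± 0.08 (adjusted p = 0.00177). Myc, given above, was the third to fall. Klf6 (0.19 ± 0.06) and Junb (0.24 ± 0.08) complete the count. With the mean of all probe sets Klf6 differed by 0.01 (adjusted p = 0.945), and its other probe sets gave -0.00 and -0.16. The number of higher members was 2 without ZT12 replicate 2, ZT12 replicate 3 or ZT8 replicate 1. Of 16 heat shock chaperones 3 rose and 1 fell. Dnajb4, a co-chaperone of HSP70, rose by 0.32 ± 0.07 (adjusted p = 0.00154) and Hsp90aa1, an inducible HSP90, fell by 0.26 ± 0.06 (adjusted p = 0.0033). Ahsa1 (0.47 ± 0.15, adjusted p = 0.0478) and Hspa1b (0.12 ± 0.04, 0.0444) were also called, though not with the mean of their probe sets (0.122 and 0.159), and 1 chaperone was higher without ZT12 replicate 2, ZT12 replicate 4, ZT8 replicate 1 or ZT8 replicate 3.

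Of 23 cell cycle genes 2 rose and none fell (median 0.06), against 3.61% higher and 5.69% lower over all genes. Wee1, the kinase that restrains entry into mitosis and a known target of the clock, had 10.00, 9.63, 9.69 and 9.64 at ZT12, against 7.72, 8.51, 7.62 and 7.81 at ZT8. It was 3.54-fold higher at ZT12 (1.82 ± 0.26, adjusted p = 4.85e-06), the largest increase under the rule for named genes, and its second probe set gave 1.38. Cdk2 had 7.97, 7.97, 7.88 and 8.39 at ZT12, against 7.42, 7.39, 7.49 and 7.46 at ZT8 (0.61 ± 0.12, adjusted p = 0.000971). Among 15 p53 and DNA damage response genes, 3 rose and 2 fell. Trp53inp1, a p53-induced protein that promotes autophagy and cell death, had 9.16, 8.85, 8.80 and 8.63 at ZT12, against 7.65, 7.89, 7.68 and 7.91 at ZT8 (1.08 ± 0.13, adjusted p = 6.26e-07). Plk2, a polo-like kinase, had 8.22, 8.48, 8.35 and 8.46 at ZT12, against 8.98, 9.25, 9.12 and 9.14 at ZT8 (-0.74 ± 0.11, adjusted p = 1.11e-05). Xpc (0.93 ± 0.28, adjusted p = 0.0278), Bbc3 (0.37 ± 0.11, 0.0255) and Gadd45a (-0.36 ± 0.09, 0.0114) complete the count, with 1 member higher without ZT8 replicate 1, ZT8 replicate 2 or ZT8 replicate 3, and 1 lower without ZT8 replicate 2.

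Some regulators of quiescence and commitment changed, while most genes of stem cell identity did not pass the test. Of 28 identity and quiescence genes, 4 rose and 1 fell, with a median of 0.10. Hes1, a Notch effector that keeps satellite cells undifferentiated, had 8.57, 8.84, 8.20 and 8.44 at ZT12, against 7.47, 7.79, 7.84 and 8.00 at ZT8 (0.74 ± 0.16, adjusted p = 0.00169). Spry1, an inhibitor of growth factor signalling that is needed for return to quiescence, had 10.73, 11.01, 11.11 and 11.02 at ZT12, against 10.33, 10.56, 10.36 and 10.27 at ZT8 (0.59 ± 0.11, adjusted p = 0.000308). The groups of both genes lay apart. Hey1, another Notch effector (0.38 ± 0.11, adjusted p = 0.0212), Gas1, a growth arrest protein (0.44 ± 0.13, 0.0317), and Chrdl2, a satellite cell marker (-0.34 ± 0.10, 0.0295), were called too, and the calls depended on single mice: 2 members were higher without ZT12 replicate 2, ZT12 replicate 3 or ZT8 replicate 4, and Chrdl2 was not called without ZT12 replicate 2 or without ZT8 replicate 1, 3 or 4. Pax7 (-0.10 ± 0.08), Myf5 (0.30 ± 0.11) and Cdh15 (-0.40 ± 0.13, adjusted p = 0.0517) did not pass the test.

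Myod1, the factor that commits satellite cells to the muscle lineage, was the 1 gene called among 11 tested of the commitment list. It had 11.25, 11.33, 11.03 and 11.13 at ZT12, against 11.76, 11.77, 11.78 and 11.87 at ZT8 (-0.61 ± 0.09, adjusted p = 1.63e-05). The ZT8 mice lay within a narrow band above all ZT12 mice, and ZT12 was its low point of the day on the control diet. Over the 11 genes the differences ran from -0.61 to 1.99 (median 0.07), 7 positive and 4 negative, and the gene at 1.99 was not called. In 3 genes all ZT12 mice lay above all ZT8 mice and in 2 below, against 6.0% and 9.85% of all genes. Myog, which acts after Myod1, had 6.87, 7.19, 7.60 and 6.11 at ZT12, against 5.92, 5.82, 5.27 and 5.46 at ZT8, but with this spread it did not pass the test (1.32 ± 0.51, adjusted p = 0.0948).

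Of 21 extracellular matrix genes 4 rose and none fell, with a median of 0.17, against 3.61% higher over all genes. Sparc, a matrix protein that satellite cells and fibroblasts express, had 11.71, 11.71, 11.56 and 11.58 at ZT12, against 11.30, 11.28, 11.41 and 11.45 at ZT8 (0.28 ± 0.06, adjusted p = 0.00147). Col1a1, the main chain of type I collagen, had 10.08, 10.32, 8.90 and 9.16 at ZT12, against 7.96, 7.76, 8.29 and 8.24 at ZT8 (1.55 ± 0.46, adjusted p = 0.028). The 4 ZT12 mice of Col1a1 differed widely among themselves, and the adjusted p was 0.0782 without ZT12 replicate 1, 0.102 without ZT12 replicate 2, 0.0634 without ZT8 replicate 1 and 0.0677 without ZT8 replicate 2. Thbs4, a matrix glycoprotein outside the list, had 8.45, 7.67, 7.09 and 7.32 at ZT12, against 5.45, 5.36, 6.32 and 6.36 at ZT8 (1.76 ± 0.47, adjusted p = 0.0129, and 0.0572 without ZT12 replicate 1). Col3a1 (0.28) and Col5a2 (0.34) complete the count of the list, and neither was called with the mean of its probe sets (adjusted p = 0.434 and 0.0723). The count of higher members was 1 without ZT12 replicate 2 or ZT8 replicate 2, a share near that over all genes. It was 2 without ZT12 replicate 3, ZT12 replicate 4, ZT8 replicate 1, ZT8 replicate 3 or ZT8 replicate 4.

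The mean of fibro-adipogenic markers was also higher at ZT12, and it includes Col1a1. The mean over the 8 measured was 7.99 to 8.21 at ZT12 and 7.61 to 7.91 at ZT8, so that the groups did not overlap. Of these 8 markers 3 lay below the level filter. The differences of those above it ran from 0.01 to 1.55 with a median of 0.28, and Col1a1 had the largest. Of the 5 above the level filter 2 rose (Col1a1, which is also in the matrix list, and Dpt by 0.28 ± 0.08), and neither was called without ZT12 replicate 2. Among the 3 immune markers above the filter, Cd68, a macrophage protein, rose by 0.79 ± 0.21 (adjusted p = 0.0136). The part of such cells in the results was not tested. Smooth muscle and pericyte markers averaged 9.09 to 9.82 at ZT12 and 9.49 to 10.08 at ZT8, and Schwann cell markers 7.71 to 7.85 at ZT12 and 7.64 to 7.84 at ZT8, with overlapping ranges and no member called of 6 and 5 tested.

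The named genes with the largest changes that belong to no list were mostly of other functions. Lower at ZT12 were Car13, a carbonic anhydrase (-1.44 ± 0.24), Rad18, a ubiquitin ligase of DNA damage tolerance (-1.28 ± 0.20), Tcim, a transcriptional and immune response regulator (-1.21 ± 0.13), and Spata4 (-1.20 ± 0.31, with an adjusted p of 0.0523 without ZT8 replicate 4). Tcim had 9.55, 9.44, 9.05 and 9.04 at ZT12, against 10.37, 10.41, 10.57 and 10.59 at ZT8, and its second probe set gave -1.44. Higher at ZT12 were D230025D16Rik (1.44 ± 0.29), Fut11, a fucosyltransferase (1.23 ± 0.16), Ppp3r1, the regulatory subunit of calcineurin (1.23 ± 0.30), Tfdp2, a partner of E2F factors (1.08 ± 0.21), Irf2bpl (1.08 ± 0.15) and Itgbl1 (1.11 ± 0.35). Irf2bpl had 8.85, 9.08, 8.69 and 8.42 at ZT12, against 7.45, 8.01, 7.67 and 7.60 at ZT8, and its second probe set gave 0.92. The calls of Car13 and Fut11 rested on 1 probe set each, since others of the same genes gave -0.29 and 0.01 for Car13 and -0.07 for Fut11. The mean over probe sets was -0.57 for Car13, 0.58 for Fut11 and 0.69 for Ppp3r1. Itgbl1 was not called in any fit that left out a mouse (adjusted p 0.0505 to 0.0983).

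Over the day, ZT8 held the lowest control mean of most genes higher at ZT12 and the highest of most genes lower at ZT12. Of the 370 higher genes, 253 (68.4%) had their lowest control mean at ZT8 and 188 (50.8%) their highest at ZT12. Of the 584 lower genes, 330 (56.5%) had their lowest at ZT12 and 409 (70.0%) their highest at ZT8. Over all genes 13.9% were highest and 16.9% lowest at ZT12, and 22.6% were highest and 15.3% lowest at ZT8, and since calls use these same means the shares are a description. Some genes stayed at the level reached at ZT12. Idi1 had 8.55, 8.92, 9.47, 6.80, 7.34 and 6.95 from ZT0 to ZT20, Per2 had 8.84, 8.27, 8.92, 10.25, 10.01 and 10.06, and Tsc22d3 had 7.33, 6.96, 7.45, 8.87, 8.51 and 8.52. Others were displaced at ZT12 alone. Srxn1 had 8.47, 9.12, 9.24, 7.47, 9.49 and 8.57, Osmr 8.98, 9.19, 9.22, 7.95, 9.26 and 8.89, and Tcim 10.20, 10.07, 10.49, 9.27, 10.46 and 10.44. Each time is a single collection day, so that such a dip is at once that of a time and that of a day.

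**Figure D4:**
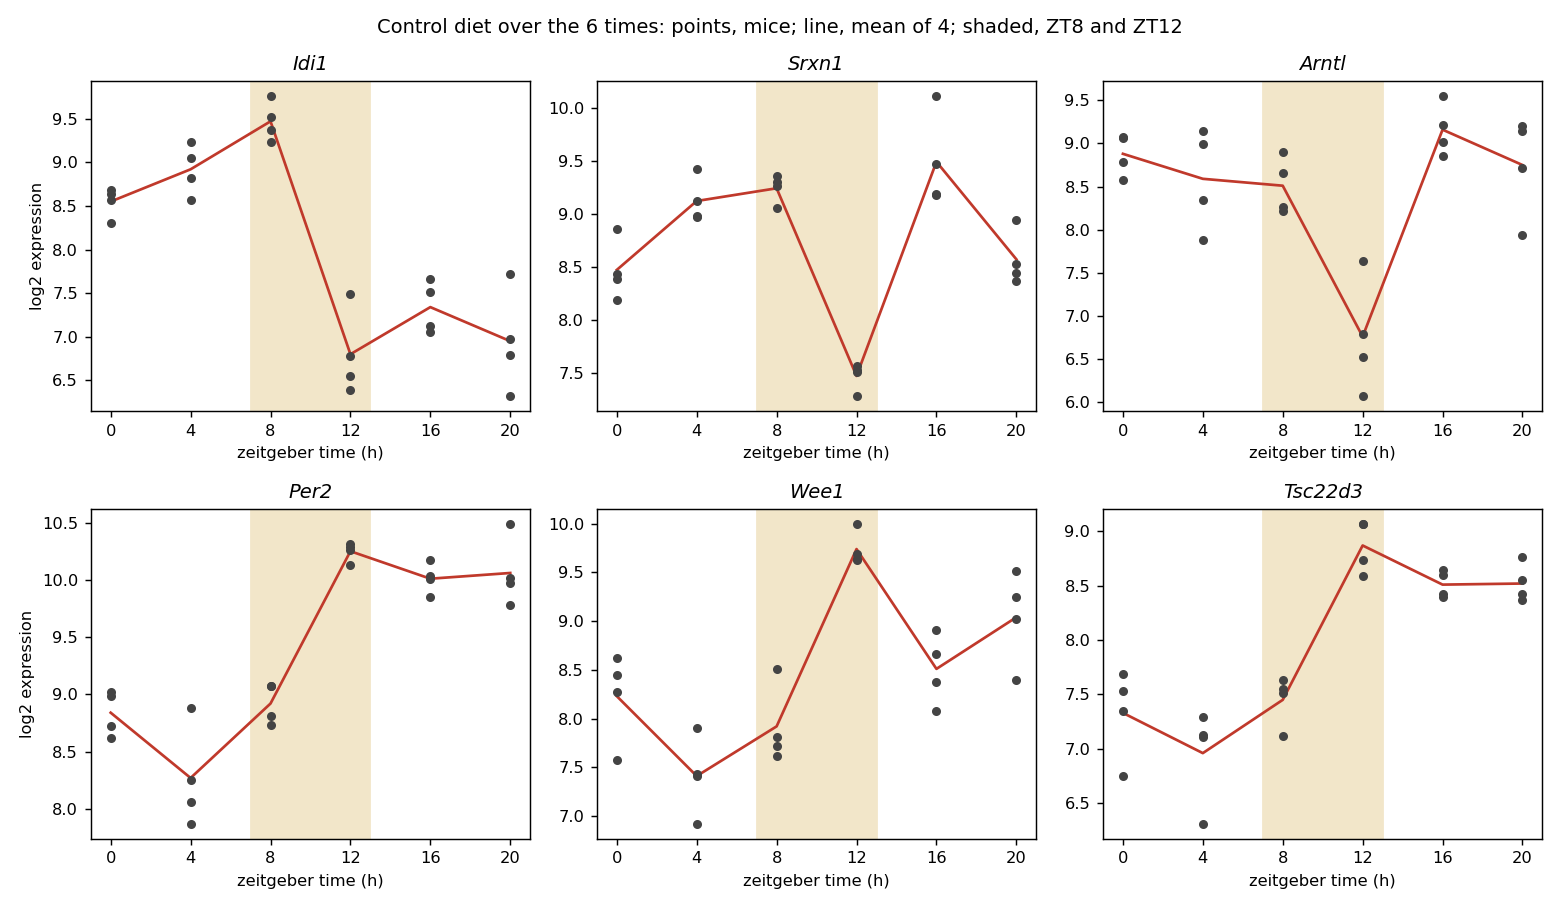
Log2 expression over the 6 times on the control diet for Idi1, Srxn1, Arntl, Per2, Wee1 and Tsc22d3; points are mice, the line joins the means of 4 mice, and the shading covers ZT8 and ZT12. Srxn1 and Arntl dip at ZT12, to means of 7.47 and 6.76, whereas Per2 and Tsc22d3 stay up at ZT16 and ZT20.

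The same step in high-fat mice used other animals, collected on the same 2 days. There 395 genes were higher and 423 lower at ZT12 (3.85% and 4.12%). With only these groups in the fit the counts were 133 and 127, and without high-fat ZT8 replicate 1 they were 259 and 248, so the shares below hold for the fit of all 12 groups. Of the genes higher on the control diet, 103 were also called higher on the high-fat diet, 27.8% of the control list and 26.1% of the high-fat list, and of those lower 151 were shared, 25.9% and 35.7%. Among the 954 genes called on the control diet, 797 (83.5%) had the same sign on the high-fat diet, against 62.1% of all genes. Their sizes were smaller there: genes higher on the control diet had a median difference of 0.50 in control mice and 0.22 in high-fat mice, and genes lower had -0.49 in control mice and -0.20 in high-fat mice. Since the genes were chosen by the control contrast, part of that gap is fixed by the choice. Arntl had 4.94, 5.48, 6.41 and 7.03 at ZT12, against 7.74, 7.85, 7.91 and 8.34 at ZT8 on the high-fat diet (-1.99 ± 0.33, adjusted p = 0.000169). Per1 (0.92 ± 0.14), Per2 (1.04 ± 0.16), Wee1 (1.63 ± 0.26), Srxn1 (-1.36 ± 0.23), Tsc22d3 (0.87 ± 0.18), Pdk4 (-0.75 ± 0.10) and Myod1 (-0.54 ± 0.09) passed the test on the high-fat diet in the direction they took on the control diet. Per3 did not (0.22 ± 0.27, adjusted p = 0.688). Its control change minus its high-fat change was 0.89 ± 0.38, and that test was not passed either (adjusted p = 0.309 in limma).

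Cholesterol synthesis fell on the high-fat diet as well, with 7 of 16 genes lower, none higher and a median of -0.47, against 4.12% lower over all genes on that diet. Idi1 had 7.71, 7.76, 7.56 and 7.22 at ZT12, against 9.32, 8.73, 8.63 and 9.44 at ZT8 on that diet (-1.47 ± 0.23, adjusted p = 9.35e-05). The control change was larger than the high-fat change by 1.20 ± 0.33 on the log2 scale for Idi1, 1.26 ± 0.31 for Stard4 and 0.74 ± 0.18 for Srebf2, but the test of the difference was not passed (adjusted p = 0.0835, 0.0522 and 0.0522). No gene of the list passed it, which does not show that the diets were alike.

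The change from ZT8 to ZT12 differed between the diets for 26 genes (0.253% of those tested), 7 with the control change above the high-fat change and 19 with it below. This count was not stable: it was 6 without control ZT8 replicate 3 and 45 without high-fat ZT12 replicate 4, 10 with the 16 arrays of the 4 groups alone, 154 with array weights and 82 with no level filter. Both diets of a time shared a day, so a shift common to all mice of a day cancels in this difference. Scd1 fell on the control diet (values above) and rose on the high-fat diet, where it had 9.93, 10.00, 10.09 and 10.12 at ZT12, against 9.82, 9.68, 9.69 and 9.86 at ZT8 (0.27 ± 0.08, adjusted p = 0.0226). The difference of the changes was -0.67 ± 0.11 (adjusted p = 0.00301). Cpt1a did the opposite, rising on the control diet and falling on the high-fat diet, where it had 8.40, 8.43, 8.12 and 8.50 at ZT12, against 8.98, 8.76, 8.58 and 8.92 at ZT8 (-0.45 ± 0.14, adjusted p = 0.0429). Its difference of the changes was 1.01 ± 0.20 (adjusted p = 0.0193). For both genes the groups of each diet did not overlap. Of 15 fatty acid synthesis genes Scd1 was the 1 with such a difference, and of 22 genes of fatty acid use Cpt1a was. The medians on the control and high-fat diets were -0.22 and -0.12 for the first list and -0.03 and -0.01 for the second.

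Rtn4rl2, of the Nogo receptor family, had 6.45, 6.43, 6.34 and 6.28 at ZT12, against 6.60, 6.61, 6.62 and 6.79 at ZT8 on the control diet, and 6.47, 6.75, 6.65 and 6.26 at ZT12, against 5.83, 5.39, 6.00 and 6.02 at ZT8 on the high-fat diet. The change was -0.28 ± 0.13 in control mice and 0.72 ± 0.13 in high-fat mice, and the changes differed by -1.01 ± 0.18 (adjusted p = 0.0076). The other named genes were Zfp369 (-1.27 ± 0.24, adjusted p = 0.015), Dvl2, a Wnt signal transducer (0.83 ± 0.16, 0.015), Svil, an actin-binding protein (-1.46 ± 0.29, 0.0193), Zer1, a substrate receptor of a ubiquitin ligase (-0.79 ± 0.16, 0.0193), and Pcif1, a methyltransferase of the mRNA cap (1.37 ± 0.28, 0.0193). These 5 lost their call in some fits. With the mean of all probe sets Zfp369 differed by -0.54 (adjusted p = 0.157) and Dvl2 by 0.45 (0.0649). The second probe set of Zfp369 gave a control change of 0.18, against -0.47 for the one used. For Svil the second probe set gave -0.04, against -0.85 for the one used. Their mean levels were 6.11 and 6.10, not far above the level filter of 5.8. With array weights Pcif1 differed by 1.06 (adjusted p = 0.0531). With the 16 arrays of the 4 groups alone the adjusted p was 0.1 for Zfp369, Dvl2 and Pcif1, 0.118 for Svil and 0.0599 for Zer1, and without control ZT12 replicate 1, control ZT8 replicate 3 or high-fat ZT12 replicate 2 it was 0.0506 to 0.0567 for Svil, Zer1 or Pcif1, whereas Scd1, Cpt1a and Rtn4rl2 kept theirs in all fits tried.

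**Figure D5:**
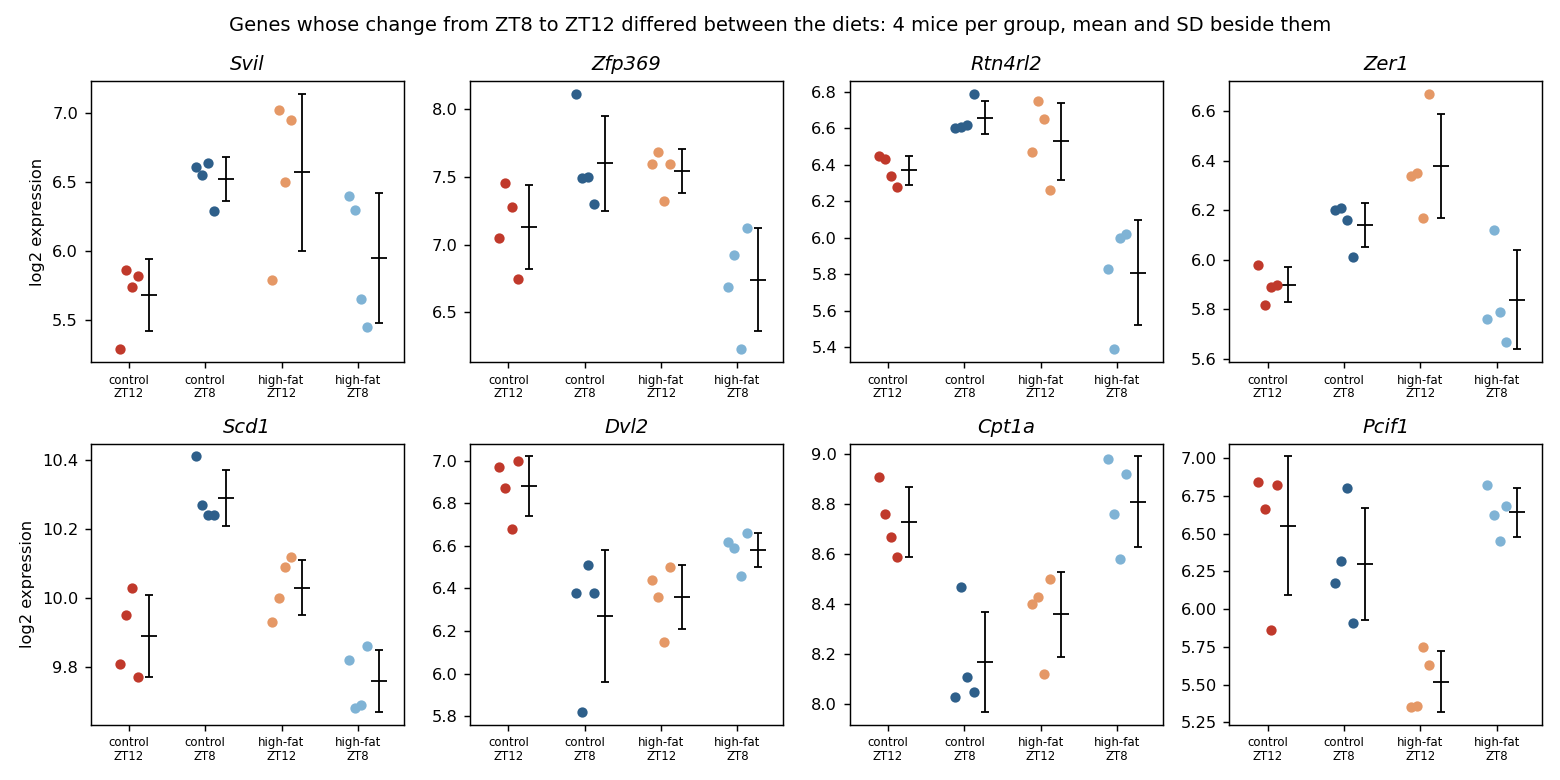
Log2 expression of the 8 genes with the smallest p for a difference of the change between diets; points are mice of control ZT12 (red), control ZT8 (blue), high-fat ZT12 (orange) and high-fat ZT8 (light blue), with mean and SD (n = 4). For Scd1, Svil, Zfp369, Rtn4rl2 and Zer1 the control mean is lower at ZT12 and the high-fat mean higher, and for Cpt1a, Dvl2 and Pcif1 it is the reverse.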

How the data were processed

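RNA of muscle stem cells (25 ng per sample) was amplified in 17 cycles, and 8 µg of labelled cDNA was hybridised to Affymetrix arrays, per the labels' protocols. The deposited table holds log2 values of 45141 probe sets on 47 arrays, made by the authors with RMA per the submitters' processing notes, whose version is not given in the sources used here. RMA sets the probe intensities of all arrays to 1 distribution, so a shift common to all genes would not be seen. The deposited probe set values still differed slightly in level. Array medians were 5.88 to 5.89 at ZT12 and 5.90 to 5.93 at ZT8 on the control diet, without overlap. Of the probe sets, 28898 carry 1 gene symbol, 551 several and 15692 none, and 28689 symbols were matched by gene identifier. The brightest probe set stood for each of 17097 genes. Genes with a mean above the 40th percentile (log2 level 5.8) were kept, 10258 in all, of which 5496 had more than 1 probe set.

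Means of the 12 groups were fitted with limma 3.58.1 in R 4.3.3, with an intensity trend and Benjamini-Hochberg adjustment over all genes tested, and a gene was called at an adjusted p under 0.05. The labels call the samples biological replicates, 1 mouse each. Recovery was tested on simulated data: of 100 genes changed by 0.6 on the log2 scale 58% were called, and of 100 changed by 0.3, 13%. No other genes were changed there, whereas 9.3% were called in the data. The adjustment depends on the share of changed genes, so these recoveries need not hold for the data. Members and gene lists were chosen with earlier results of these data known. The genes named were the 12 largest increases and 12 largest decreases among called genes without overlap of the groups, the tested clock genes, up to 4 genes of smallest p per list (more where a list is described) and the 8 genes of smallest p for a difference between diets. Pax7 and other genes given as uncalled were named as list members after their values were seen. Alternatives were other groupings, scalings, level filters, probe set rules, array weights, a replicate block and leaving out each mouse.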

Additional observations from a re-analysis of the deposited data

Results flagged for a closer look

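Single mice stood apart in 28 of 378 sets of 4 control values examined, by Dixon's criterion on the gap to the nearest mouse. Chance alone puts about 1 in 20 sets there, which is 18.9. On the log2 scale ZT8 replicate 2 stood apart most often. It was high for Errfi1 (12.30, others 12.22 to 12.23), Fosl1 (9.63, others 9.43 to 9.45), Myc (11.65, others 11.56 to 11.58) and Ncl (10.38, others 10.26 to 10.28). It was low for Timeless (6.39, others 6.99 to 7.07) and Uqcrq (9.71, others 10.16 to 10.23), and for the list means of clock kinases and ligases (8.89, others 9.11 to 9.15), p53 response genes (8.60, others all at 8.66), oxidative phosphorylation complexes II to V (9.73, others 9.91 to 9.92) and mitochondrial ribosomal proteins (7.61, others 7.76 to 7.79).

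ZT8 replicate 4 was high for Csnk1d (12.36, others 12.27 to 12.28), Gclc (9.11, others 8.90 to 8.94), Pdk4 (10.27, others 10.13 to 10.14) and Rtn4rl2 (6.79, others 6.60 to 6.62), and low for Tfdp2 (7.24, others 7.54 to 7.59). ZT8 replicate 1 was high for the mean of the positive arm of the clock (7.78, others 7.60 to 7.61). Among the ZT12 mice, replicate 1 was high for Wee1 (10.00, others 9.63 to 9.69) and low for Cry1 (6.98, others 7.26 to 7.30) and the interferon response mean (7.32, others 7.48 to 7.49). ZT12 replicate 2 was high for Atf4 (10.63, others 10.50 to 10.51), the autophagy mean (9.04, others 8.89 to 8.91) and the Schwann cell marker mean (7.85, others 7.71 to 7.72), and low for Ndufb9 (9.45, others 9.56 to 9.57). ZT12 replicate 3 was high for Cry2 (7.97, others 7.61 to 7.63) and low for Rps27l (9.0, others 9.33 to 9.38) and the NRF2 list mean (9.46, others 9.54 to 9.55). ZT12 replicate 4 was high for Tnfaip3 (8.59, others 8.31 to 8.34) and low for the mean of the endothelial markers above the level filter (6.55, others 6.65 to 6.66).

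The change from ZT8 to ZT12 differed between the diets, by the test of the difference itself in limma, for the 8 genes named in the report. The control change minus the high-fat change was positive for Cpt1a (1.01), Dvl2 (0.83) and Pcif1 (1.37). It was negative for Rtn4rl2 (-1.01), Scd1 (-0.67), Svil (-1.46), Zer1 (-0.79) and Zfp369 (-1.27).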

How the results depend on the processing

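Of 133 called genes named or counted in lists, 87 kept their call under all alternatives that used every mouse and 76 in all fits that left out 1 mouse, and none changed direction in either. Of 44 list medians 14 moved by more than 1 SD between mice in at least 1 setting. Counts at an adjusted p under 0.05 moved as follows, and the cause was not tested. Array weights gave 748 genes higher and 1292 lower on the control diet, and 154 diet differences. With only the groups compared, the high-fat counts were 133 higher and 127 lower genes, with 10 diet differences. No level filter gave 82 diet differences, the 60th percentile filter 13, cyclic loess 51 and median centring 49.

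Leaving out single mice gave 251 to 337 higher and 382 to 535 lower genes on the control diet, 253 to 329 higher and 248 to 398 lower genes in high-fat mice, and 6 to 45 diet differences. The lowest count of diet differences came without control ZT8 replicate 3 and the highest without high-fat ZT12 replicate 4. On the high-fat diet 253 were higher without ZT12 replicate 1 and 259 without ZT8 replicate 1, and 248 were lower without ZT8 replicate 1 and 279 without ZT12 replicate 3.

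With the replicate block, 338 genes were higher and 526 lower on the control diet, 354 higher and 364 lower in high-fat mice, and 24 differed between diets. Deviations of same-numbered mice correlated at -0.215 to 0.032 on the control diet and at -0.083 to -0.023 on the high-fat diet, so the numbers pair nothing.

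Differences that changed sign were all uncalled. Clock reached 0.03 without ZT12 replicate 4 (range without single mice -0.25 to 0.03). Csnk1d reached -0.12 with the mean of all probe sets and -0.00 without ZT12 replicate 2, ZT8 replicate 1 or ZT8 replicate 2. Dbp reached -0.02 with array weights and -0.00, -0.07 and -0.14 without ZT12 replicate 3, ZT12 replicate 4 and ZT8 replicate 4 (range -0.14 to 0.15). Nr1d2 reached 0.02 with cyclic loess, 0.00 with median centring and 0.05, 0.05 and 0.00 without ZT12 replicate 3, ZT8 replicate 1 and ZT8 replicate 4 (range -0.11 to 0.05). Rora reached 0.01 with array weights, the mean of probe sets or cyclic loess, and 0.04 and 0.00 without ZT12 replicate 4 and ZT8 replicate 4 (range -0.09 to 0.04). The control change of Pcif1 reached -0.05 with array weights.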

Other observations

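The lists below were not described above, and over all genes 3.61% were higher and 5.69% lower. Nuclear transport had 1 lower gene of 33, Nup98, a nucleoporin that also binds chromatin. It had 10.35, 10.53, 10.37 and 10.39 at ZT12, against 11.03, 10.96, 10.87 and 10.95 at ZT8 (-0.54 ± 0.09), with the same difference on the high-fat diet. Autophagy and lysosome genes gave 2 higher and 3 lower of 25. Map1lc3a (LC3), a membrane protein of autophagosomes, had 11.11, 11.13, 11.06 and 10.94 at ZT12, against 11.45, 11.58, 11.64 and 11.31 at ZT8 (-0.44 ± 0.08). Ulk1, the kinase that starts autophagy, had 10.78, 10.82, 10.77 and 10.75 at ZT12, against 10.46, 10.43, 10.50 and 10.34 at ZT8 (0.35 ± 0.08), and was not called with the mean of its probe sets (adjusted p = 0.0521). The 2 genes differed in opposite directions, each without overlap of the mice. Of 14 interferon response genes 1 was higher and 1 lower. Gbp2, a guanylate-binding protein, had 7.46, 7.30, 7.15 and 7.32 at ZT12, against 6.23, 6.63, 6.44 and 6.30 at ZT8 (0.91 ± 0.19), and differed by 0.01 ± 0.19 on the high-fat diet. No gene of this list passed the test of a difference between the diets.

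Cytosolic ribosomal proteins had 3 lower genes of 68 and a median of -0.04 (Rps27l, Rpl7a and Rpl8), with 0 lower without ZT12 replicate 3 and 5 without ZT8 replicate 2, and mitochondrial ribosomal proteins 2 higher and 3 lower of 71 (median -0.06). Oxidative phosphorylation had 1 lower of 33 genes of complex I and 2 lower of 37 of complexes II to V. On the high-fat diet 4 and 8 of them were lower in the fit of all 12 groups, against 4.12% of all genes on that diet. Glycolysis had 2 lower of 18 (Hk1 and Ldha) and splicing factors 3 lower of 36 (Snrpd1, Srsf6 and U2af2), both with 0 lower without ZT8 replicate 1 or ZT8 replicate 3. Of 5 sphingosine kinases and receptors none was called, and Sphk2 differed by 0.29 ± 0.18. Haemoglobin Hba-a1 had 7.44, 7.38, 6.92 and 7.23 at ZT12, against 8.66, 7.19, 9.25 and 9.14 at ZT8 (-1.32 ± 0.62, not called), with 1 ZT8 mouse among the ZT12 values. Its other probe sets, dimmer at mean levels of 5.63 and 5.02, differed by -0.37 and -2.95. Hba-a2, the other erythroid marker tested and the brighter (mean level 11.05), differed by 0.16 and was not called.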
